A study of Mus musculus with 11 samples.

Results

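The apolipoprotein L genes of the mouse were examined in the skin and small intestine of mice with and without psoriatic skin inflammation. The 10 members (Apol6, Apol7a, Apol7b, Apol7c, Apol7e, Gm8221, Apol9a, Apol9b, Apol10a and Apol10b) were chosen by their gene symbols, as a list drawn up with results of these data in view, out of 45777 genes in the table. The remaining 5 genes with an apolipoprotein L symbol were not members. Polyadenylated RNA was sequenced from BALB/c mice aged 8 to 10 weeks. No engineered allele is named for them. They were female or male and had had either 62.5 mg of a 5% imiquimod cream (IMQ, a ligand of the RNA sensor TLR7) or Vaseline as the vehicle each day for 5 to 8 days, on a shaved back and an ear. There were 3 skin libraries from control mice (replicates 1 to 3), 3 skin libraries from IMQ-treated mice (4 to 6), 3 small intestine libraries from control mice (7 to 9) and 2 from IMQ-treated mice (10 and 11). The labels do not name the animal behind each library, so the p-values measure the spread between these libraries. Neither the segment of the small intestine nor the sex behind a library is given.

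The libraries held 44995414 to 58526384 counts each. The summed level of 10 enterocyte markers was 29110 to 48220 CPM (counts scaled to library size) in the small intestine and 87.31 to 534.6 in the skin, and that of 9 suprabasal keratinocyte markers was 9200 to 33920 in the skin and 3.227 to 4.788 in the small intestine, so each tissue held its own defining markers. Neutrophil markers summed to 17.68 to 23.31 CPM in control skin and 3765 to 4607 in IMQ-treated skin.

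Apolipoprotein L proteins are mostly intracellular proteins with lipid-binding and channel-forming helices. The family takes its name from a secreted human member that travels on high-density lipoprotein and lyses trypanosomes, and several members are induced by interferons and act on membranes of pathogens or organelles. In the mouse the genes have multiplied by local duplication. Apol9a and Apol9b are interferon-induced genes with antiviral activity, and Apol7c is known from dendritic cells, where it opens phagosomes during antigen cross-presentation. IMQ acts through TLR7, whose signalling induces type I interferon.

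All 10 members lie on chromosome 15 of the mouse genome (positions from RefSeq, build GRCm38.p6, the same assembly as the mm10 build used for alignment). Apol6 stands apart at chr15:77045050-77057108. The other 9 members lie within a cluster of 368.8 kb that starts 331.1 kb further on and holds 13 genes that have an apolipoprotein L symbol or are Gm8221. Other genes of the interval were not counted. Its members are, in order, Apol7a (chr15:77388217-77399110), Apol9a (chr15:77403789-77411080), Apol7b (chr15:77422209-77447460), Apol10a (chr15:77476953-77491069), Apol7c (chr15:77524852-77533335), Apol10b (chr15:77584154-77598542), Gm8221 (chr15:77618968-77627398), Apol7e (chr15:77695706-77719288) and Apol9b (chr15:77729047-77736382). Gm8221 is annotated as a pseudogene and the other 9 members as protein-coding.

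The copies are alike, so the stretches of transcript that they share were counted first. In the annotated transcripts (GENCODE vM21, C57BL/6J sequence, whereas the mice were BALB/c), the coding sequences of Apol7b and Apol7e were 98.9% identical over 1107 aligned bases, and 54.5% and 55.3% of their 100-base windows, the length of one read, also occurred in another family gene. Apol9a and Apol9b were 98.5% identical over 930 bases, and 11.7% and 36.7% of their windows were shared. Apol7c and the Gm8221 transcript were 97.0% identical over 1107 bases, but the differing positions were spread. Of the windows of Apol7c, 3.5% occurred in Gm8221 and 6.2% in any other family gene. Of those of Gm8221, 7.0% occurred in Apol7c and 8.8% in any other family gene. Apol7a shared 3.4%, Apol10a 1.8%, and Apol6 and Apol10b 0.0% of their windows. How reads with several matches were assigned is not given in the sources used here, so the split between Apol7b and Apol7e and between Apol9a and Apol9b is uncertain. The ratio of count to FPKM, which reflects the transcript length used by the quantifier, was compared between libraries with at least 50 counts of the gene. Those were 5 to 10 libraries per member. It varied by at most 1.53 times for Apol9b, 1.19 times for Apol9a and 1.11 times or less for the other members. Libraries under that count, mostly skins, were not compared, so a shift of the length there is not covered.

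**Figure D1:**
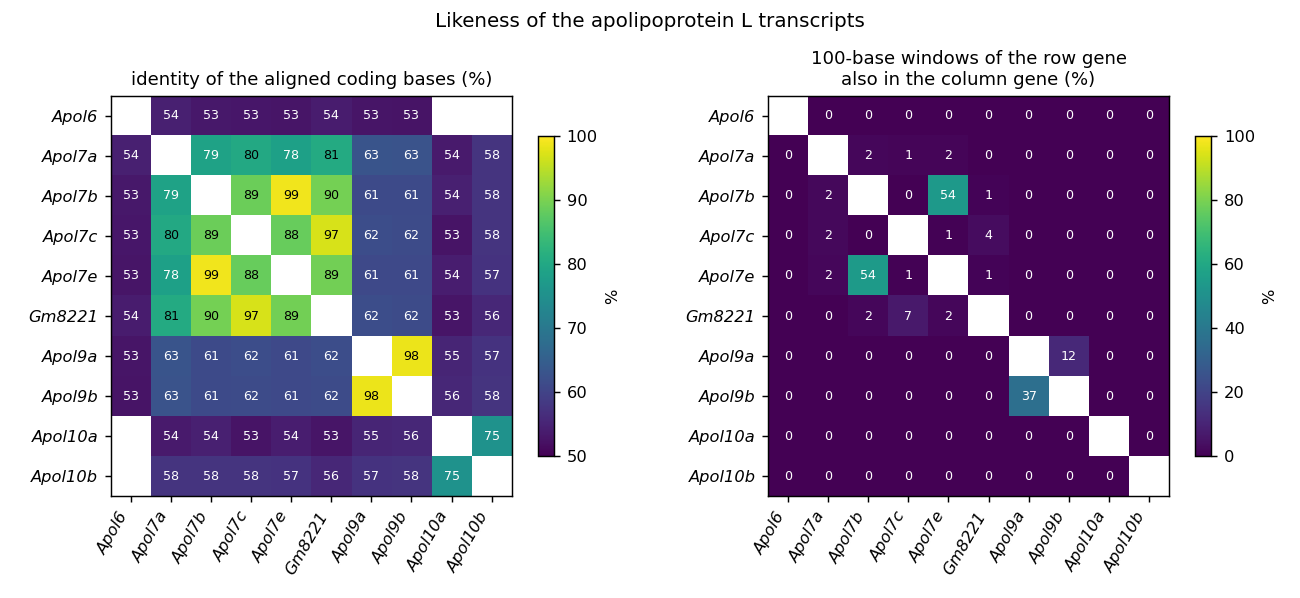
Likeness of the 10 transcripts. The left map gives the percentage of identical bases among the aligned coding bases of each gene pair (alignments under 800 bases are left blank), and the right map the percentage of 100-base windows of the row gene that also occur in the column gene. Apol7b with Apol7e (54%) and Apol9b with Apol9a (37%) stand out as the pairs that share most windows, while Apol10a and Apol10b, 75% identical, share none.

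The sequences around the start sites are shown because 6 of the 8 members with a RefSeq promoter entry held the core of an interferon-stimulated response element, the site through which type I interferon acts on its target genes. The motif searched was TTTCNNTTTC on either strand, in the window from 250 bases before to 50 bases after the start. It occurred in 3.44% of all 32851 windows and in at least one window of 3.99% of 27025 genes. Each line gives 110 bases before and 10 bases from the start site, 5′ to 3′ on the strand of the gene, with the motif in capitals.
Apol9a: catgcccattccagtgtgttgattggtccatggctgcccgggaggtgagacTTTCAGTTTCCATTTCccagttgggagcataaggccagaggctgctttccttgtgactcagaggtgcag
Apol9b: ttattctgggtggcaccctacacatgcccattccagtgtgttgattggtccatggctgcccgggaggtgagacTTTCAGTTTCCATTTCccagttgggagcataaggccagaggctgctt
Apol7c: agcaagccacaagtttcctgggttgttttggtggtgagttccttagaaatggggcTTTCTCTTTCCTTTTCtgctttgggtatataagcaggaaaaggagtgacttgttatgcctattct
Apol7e: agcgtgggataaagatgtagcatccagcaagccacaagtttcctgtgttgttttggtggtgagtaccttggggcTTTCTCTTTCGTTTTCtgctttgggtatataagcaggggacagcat
Apol7b: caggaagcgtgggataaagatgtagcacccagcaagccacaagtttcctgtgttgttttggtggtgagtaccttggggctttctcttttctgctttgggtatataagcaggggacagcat
Apol10a: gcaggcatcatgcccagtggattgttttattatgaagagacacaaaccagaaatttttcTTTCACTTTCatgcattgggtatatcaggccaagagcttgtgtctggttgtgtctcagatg
Apol10b: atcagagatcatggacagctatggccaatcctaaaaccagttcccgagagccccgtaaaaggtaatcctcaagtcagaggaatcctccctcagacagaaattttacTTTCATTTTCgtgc
These stretches lie at chr15:77411071-77411190 (Apol9a, minus strand), chr15:77728962-77729081 (Apol9b, plus), chr15:77533306-77533425 (Apol7c, minus), chr15:77698779-77698898 (Apol7e, plus), chr15:77447451-77447570 (Apol7b, minus), chr15:77476937-77477056 (Apol10a, plus) and chr15:77596116-77596235 (Apol10b, minus).

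Apol9a and Apol9b carried the same pair of overlapping motifs in windows that were identical over all 278 aligned bases, although the genes lie towards opposite ends of the cluster. Apol7c and Apol7e also carried an overlapping pair, and Apol10a and Apol10b a single motif. The windows of Apol7e and Apol10b lie inside the gene spans given above and not at their 5′ ends. The window of Apol7b was 97.7% identical to that of Apol7e but lacked the motif, and so did that of Apol7a. The interferon-gamma motif TTCNNNGAA was found in the window of Apol10a and in none of the other members with an entry, against 9.55% of all genes. A match is a description of the letters, and its absence says nothing of a factor.

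In control mice the family was mainly intestinal. The summed FPKM (fragments per kilobase of transcript, scaled to library size) of the 10 members was 163.2, 140.7 and 188.3 in the 3 control small intestines and 10.46, 26.11 and 7.13 in the 3 control skins. Apol10a led in the control small intestine at 62.6 ± 17.4 FPKM (SD, n = 3) and made up 38.16% of the family's level, followed by Apol7a at 48.5 ± 11.7, Apol9a at 18.5 ± 5.94, Apol9b at 13.4 ± 4.51 and Gm8221 at 11.3 ± 4.80. Apol7c (5.23 ± 1.73), Apol10b (2.15 ± 0.39), Apol7e (0.977 ± 0.096), Apol7b (0.960 ± 0.18) and Apol6 (0.514 ± 0.30) were lower. The libraries of Apol10a and Apol7a overlapped, as did those of Apol9a, Apol9b and Gm8221 from one to the next, and those of Apol7e, Apol7b and Apol6. In control skin, Apol6 led with 8.85, 12.61 and 5.02 FPKM, 60.58% of the family's level, and every other member had a mean of 1.94 FPKM or less.

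**Figure D2:**
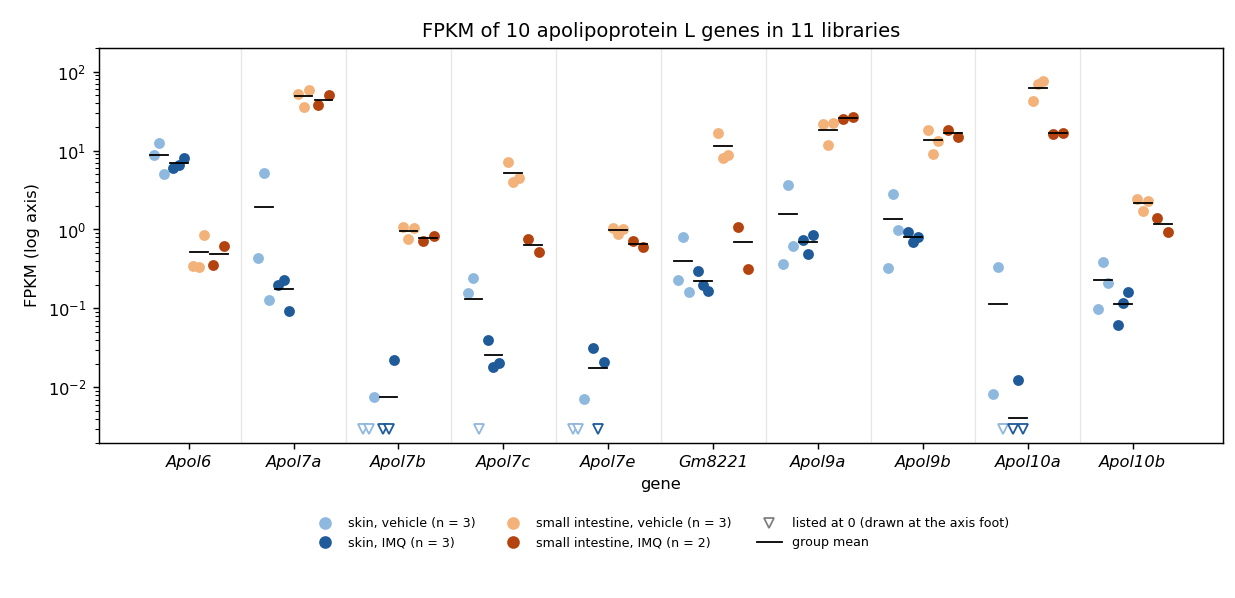
FPKM of the 10 genes (log axis) in each of the 11 libraries, by tissue and treatment. Points are libraries, black bars group means and open triangles values listed at 0. Apol6 is the only gene with all skin libraries above all small intestine libraries, and the 2 IMQ-treated small intestines lie under all 3 control ones for Apol7c, Gm8221, Apol10a, Apol7e and Apol10b.

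Across vehicle-treated tissues, 51.9% of 18890 genes tested were called (edgeR quasi-likelihood fit, p adjusted over all genes by Benjamini-Hochberg and under 0.05). All 6 members with a count in every library were among them. The scaling of libraries across tissues assumes that most genes do not differ, so the sizes of the tissue differences are approximate. Apol6 was lower in the small intestine, with a log2 difference of -3.64 ± 0.53 (SE, adjusted p = 0.00077). Higher in the small intestine were Gm8221 (5.25 ± 0.68), Apol7a (4.94 ± 1.20), Apol9a (3.89 ± 0.85), Apol10b (3.69 ± 0.44) and Apol9b (3.61 ± 0.71), with adjusted p of 0.01 or less. All 6 remained called on leaving out any 1 library, and without skin vehicle replicate 2, described further on, the log2 differences were 7.71 (Apol7a), 6.31 (Gm8221), 5.57 (Apol9a), 4.75 (Apol9b), 4.26 (Apol10b) and -3.22 (Apol6). Apol7b, Apol7c, Apol7e and Apol10a had 0 counts in at least 1 skin library and were left out of this fit. Apol7b and Apol7e had at most 1 count in any control skin and were at least 55.1-fold and 55.9-fold higher in the small intestine, taking 3 counts per skin library as the floor, which covers counting error only. Apol7c had 20, 26 and 0 counts and Apol10a 2, 52 and 0 counts in the 3 control skins, against 441 to 798 and 7048 to 15041 in the control small intestines.

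Whether IMQ on the skin changed these genes in the small intestine was addressed by comparing 2 IMQ-treated with 3 control libraries. Gm8221, Apol7c and Apol10a fell, and the 7 other members were not called. This is 3 of 10 members, all lower, where 2.95% of 19965 genes tested were called and 0.17% (34 genes) were called lower. Among those 34, Gm8221 had the largest fall on the log2 scale, Apol7c the 4th and Apol10a the 12th largest. Both IMQ-treated libraries lay under every control library in 5 of 10 members, and in 13.9% of all genes. The median log2 fold change was -0.40 over the members and -0.02 over all genes. The list was drawn up with these results known, so the counts describe the members and give no independent support.

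Gm8221 had 2007, 905.3 and 1085 normalized counts (counts divided by a library size factor) in the control small intestines and 126.2 and 41.03 in the IMQ-treated ones. The groups did not overlap, and the fall was 15.7-fold (log2 fold change -3.97 ± 0.57 SE, adjusted p = 0.0115). Apol7c had 865.6, 444.6 and 555.1 normalized counts in control and 90.8 and 65.4 in IMQ-treated small intestines. This 7.92-fold fall, a log2 fold change of -2.99 ± 0.36 (adjusted p = 0.00506), was again without overlap. Although Apol7c and Gm8221 are near copies, Apol7c made up 30.14, 32.94 and 33.84% of their joint counts in control and 41.84 and 61.46% in IMQ-treated libraries, so the IMQ-treated libraries held relatively less Gm8221. In bulk tissue, fewer cells of a type and less RNA per cell cannot be told apart.

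Apol10a, with the highest mean FPKM of the family in the control small intestine, had 7645, 11350 and 13890 normalized counts in control and 2791 and 3166 in IMQ-treated small intestines. The fall was 3.68-fold (log2 fold change -1.88 ± 0.26, adjusted p = 0.00988), and the groups did not overlap. Its relative Apol10b had 310.2, 219.8 and 294.6 normalized counts in control and 175.2 and 133.1 in IMQ-treated libraries, without overlap, but the log2 fold change of -0.83 ± 0.27 missed the threshold (adjusted p = 0.222). Apol11b, a neighbour in the cluster that is no member, had 732.2, 1105 and 1222 normalized counts in control and 266 and 268.3 in IMQ-treated libraries, a log2 fold change of -1.93 ± 0.25 (adjusted p = 0.00728). Apol11b shared 41 of the 100-base windows of Apol10a, out of 2934.

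The other abundant members were not called. Apol7a had 7484, 4862 and 8733 normalized counts in control and 5501 and 7681 in IMQ-treated small intestines, a log2 fold change of -0.09 with a 95% interval from -0.61 to 0.43 (adjusted p = 0.943). Apol9a had 1937, 962.8 and 2033 in control and 2220 and 2536 in IMQ-treated libraries, so that both lay above every control library, yet its log2 fold change of 0.53 ± 0.30 was not called (adjusted p = 0.569). Apol9b had 1860, 806.5 and 1413 against 1842 and 1588 normalized counts, which overlap (log2 fold change 0.34 ± 0.31, adjusted p = 0.772). When the counts of both Apol9 copies were summed, which does not depend on how shared reads were split between them, the log2 fold change was 0.45 ± 0.29 (adjusted p = 0.65). The Apol7b, Apol7e and Apol6 changes were -0.27 ± 0.31, -0.53 ± 0.27 and -0.06 ± 0.52. With these falls the order of levels changed: in the IMQ-treated small intestine Apol7a led at 43.7 FPKM, Apol9a (26.0) passed Apol10a (16.5), and Gm8221 (0.698) and Apol7c (0.642) stood among Apol7b, Apol7e and Apol6. The summed FPKM of the family was 101.9 and 112.1, under all 3 control libraries.

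**Figure D3:**
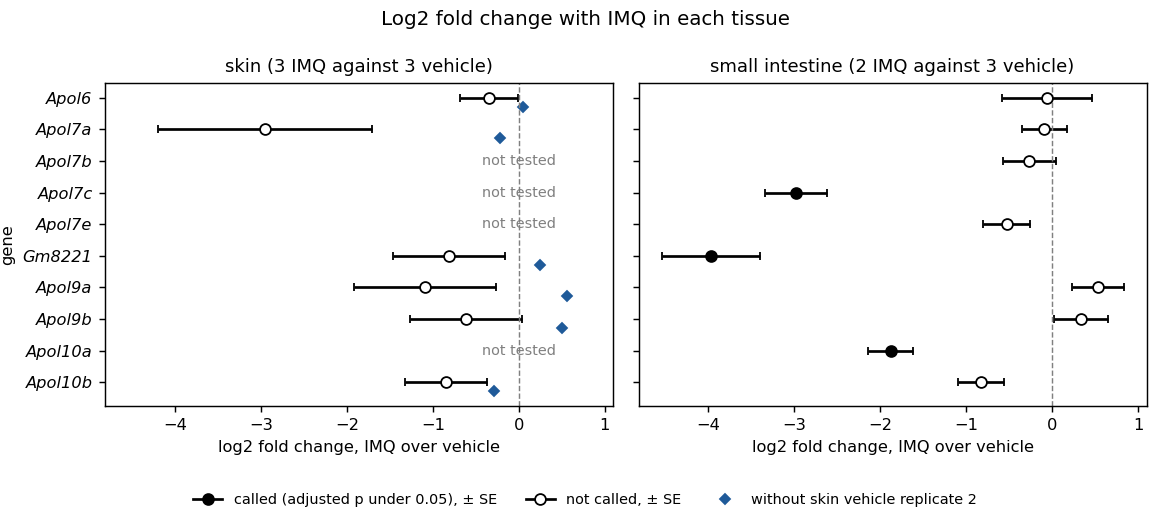
Log2 fold change (IMQ over vehicle, ± SE) of each gene in skin (left) and small intestine (right), with filled circles for called genes and diamonds for the skin values without skin vehicle replicate 2. In the small intestine Gm8221, Apol7c and Apol10a lie at -3.97, -2.99 and -1.88, and in the skin no gene is called.

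On the map of the cluster, the falls in the small intestine lay in its middle. Apol10a, Apol11a, Apol7c, Apol10b, Gm8221 and Apol11b, which follow one another among the apolipoprotein L genes, had log2 fold changes of -1.88, -1.10, -2.99, -0.83, -3.97 and -1.93, of which the 2nd and 4th were not called (adjusted p = 0.171 and 0.222). Apol7a, Apol9a and Apol7b on one side lay between -0.27 and 0.53, and Apol7e and Apol9b on the other between -0.53 and 0.34, with the non-member Apol8 beyond them at 0.64 (adjusted p = 0.683). This order was seen after the values and was given no test.

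**Figure D4:**
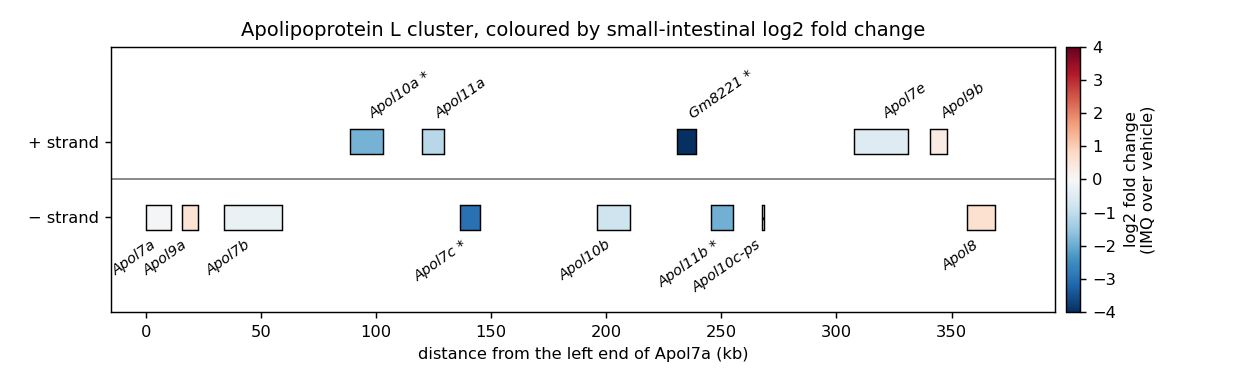
Apolipoprotein L genes and Gm8221 in the cluster by distance in kb from the left end of Apol7a, on the plus strand (upper row) and minus strand (lower row), coloured by small-intestinal log2 fold change with IMQ. Asterisks mark called genes, and Apol10c-ps (hatched) was not tested. The 4 called genes, Apol10a, Apol7c, Gm8221 and Apol11b, lie in the middle with Apol11a (-1.10) and Apol10b (-0.83), which were not called. The tested genes on either side lie between -0.53 (Apol7e) and 0.64 (Apol8).

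Several other measures moved with IMQ in the same small intestine libraries. A score of proximal against distal small intestine markers (log2 of the proximal sum over the distal sum) was 4.189, 2.411 and 3.067 in control and 4.839 and 5.367 in IMQ-treated libraries, so that the groups did not overlap. It was built from 7 proximal and 5 distal genes, and 1 distal gene was at 0 in every small intestine library. All 7 proximal and 4 distal genes were tested, and 0 were called. Their median log2 fold changes were 0.1745 (proximal) and -1.0012 (distal). With this score as a covariate, an alternative added after seeing the data, Gm8221 (-4.74, adjusted p = 0.0398) and Apol7c (-3.77, adjusted p = 0.0176) were still called, Apol10a was -1.26 (adjusted p = 0.311), and Apol9a and Apol9b turned to -0.31 and -0.61. Goblet cell markers (6 genes) summed to 6689 to 8752 CPM in control and 5955 to 6405 in IMQ-treated libraries, Paneth cell markers (6 genes) to 13530 to 16620 and 10380 to 11320, and enterocyte markers (10 genes) to 29110 to 37570 and 44120 to 48220. The median log2 fold change of the 10 enterocyte genes was -0.04, unlike their sum. None of these 22 genes was called, and none was at 0 in a small intestine library. Dendritic cell markers (10 genes) summed to 83.36 to 99.58 CPM in control and 264.3 to 345.7 in IMQ-treated libraries, with 3 genes called higher. The median log2 fold change of these 10 genes was 0.52, less than the rise of their sum. Apol7c, known from dendritic cells, fell. Macrophage and monocyte markers (11 genes) summed to 405.4 to 570.8 CPM in control and 1254 to 1321 in IMQ-treated libraries, with 5 called higher. Neutrophil markers (8 genes, 5 tested) went from 7.057 to 9.26 CPM in control to 35.05 to 37.77, with 2 called higher, and endothelial markers (5 genes) from 89.26 to 134.4 to 209.4 to 249.6, with 1 called higher. As the score did not overlap between the groups, the fit with it as a covariate cannot tell gut segment and IMQ apart. The part of cell makeup and of gut segment in the falls was not tested.

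The falls rested on few libraries. Without IMQ-treated replicate 11, Apol7c (-2.78, adjusted p = 0.0555) and Apol10a (-1.98, adjusted p = 0.0803) were no longer called, and without replicate 10 Apol10a was not (-1.79, adjusted p = 0.117). Gm8221 stayed called and was -3.40 (adjusted p = 0.0464) without replicate 11 and -5.01 (adjusted p = 0.0193) without replicate 10, since its 2 IMQ-treated values differ. A single IMQ-treated library in such a fit is assumed to vary like the control libraries. In a fit of all 11 libraries, whose spread estimate includes the skin, Apol7c (-3.01, adjusted p = 0.0753) and Apol10a (-1.90, adjusted p = 0.388) missed the threshold.

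In the skin, 0 of the 6 members tested were called, where 6.74% of 20512 genes were, and none was called by DESeq2 or limma-voom either. At an unadjusted p under 0.05 there was 1, Apol7a. All 6 log2 fold changes were negative, with a median of -0.83 against -0.01 over all genes, and this rested on 1 control library. Apol7a had 60.6, 773.1 and 25.3 normalized counts in control and 42.6, 47.3 and 20.2 in IMQ-treated skins. Skin vehicle replicate 2 was thus far above the other 5 skins, and the log2 fold change of -2.95 ± 1.24 (adjusted p = 0.215) became -0.22 without it. Apol9a showed the same library on top, with 34.4, 331.5 and 54.1 against 65.6, 48.3 and 81.7 normalized counts, and its log2 fold change turned from -1.09 to 0.56. Apol9b (-0.62), Gm8221 (-0.81) and Apol6 (-0.34) likewise became 0.50, 0.24 and 0.05 without replicate 2, and Apol10b went from -0.85 to -0.29.

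Apol6, the main member in the skin, had 1060, 1616 and 596.2 normalized counts in control and 773.7, 816.5 and 985.1 in IMQ-treated skins, with overlap and a 95% interval of its log2 fold change from -1.01 to 0.32. Apol7c, not tested because of its 0, had 20, 26 and 0 counts in control and 5, 2 and 3 in IMQ-treated skins. Without skin vehicle replicate 3, which held the 0, it could be tested and was called lower (-2.67, adjusted p = 0.0303), and with no filter on low counts it was -2.07 (adjusted p = 0.444). Apol7b and Apol7e had at most 4 counts in any skin, and Apol10a at most 3 outside skin vehicle replicate 2, where it had 52.

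Skin vehicle replicate 2 was described further because it decides the skin values. Its enterocyte markers summed to 534.6 CPM, against 112.6 and 87.31 in the other control skins, and its Paneth and goblet cell markers were likewise the highest of the 6 skins at 222.1 and 370.5. Its level above the mean of the other control skins was expressed as a percentage of the gene's FPKM in control small intestine. For 22 intestinal markers this excess had a median of 1.37% and ranged from 0.473 to 5.39%. It was 17.4% for Apol9a, 15.9% for Apol9b, 10.7% for Apol10b and 10.3% for Apol7a, above every one of the 22 markers, 5.31% for Gm8221, 3.11% for Apol7c and 0.525% for Apol10a. Apol7b and Apol7e, with at most 1 count in any control skin, had no excess (-0.395 and -0.367%), and Apol6, whose level is higher in skin than in the small intestine, was left out of this scale. This library also had the highest summed FPKM of 35 type I interferon-induced genes among the skins (258.7, against 147 to 212.7), the highest sum of 24 interferon gamma-induced genes (368.1, against 195.1 to 304.5), and 22.66 CPM of hair follicle markers (8 genes), where the other control skins had 1397 and 2228 and the IMQ-treated skins 25.16 to 37.33. The part of intestinal RNA, interferon or hair cycle stage in its Apol levels was not tested.

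**Figure D5:**
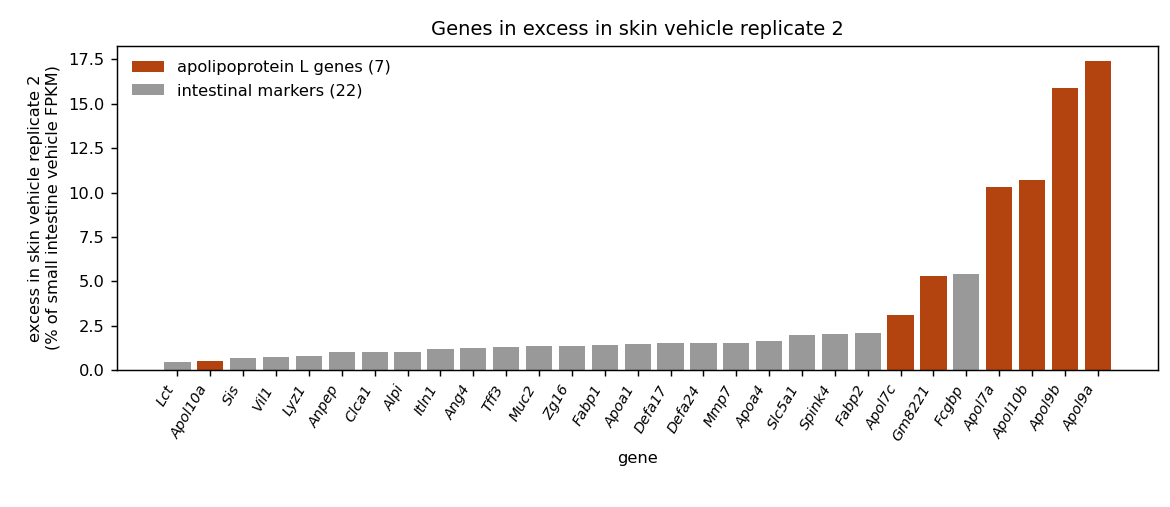
Level of each gene in skin vehicle replicate 2 above the mean of the other 2 control skins, as a percentage of its mean FPKM in control small intestine, for 7 apolipoprotein L genes and 22 intestinal marker genes. Apol9a, Apol9b, Apol10b and Apol7a (10.3 to 17.4%) exceed all markers (0.473 to 5.39%). Apol6, a skin gene, and Apol7b and Apol7e, with no excess, are left out.

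The IMQ responses of both tissues were set against each other with an interaction term fitted over all 11 libraries, in which 2.55% of 18108 genes were called. Of the 6 members tested, 0 were called by edgeR and 1, Gm8221, had an unadjusted p under 0.05. Its log2 interaction (small intestine minus skin) was -3.17 ± 0.96 (adjusted p = 0.122), and it was called by DESeq2 (-3.15, adjusted p = 0.00792) and without skin vehicle replicate 2 (-4.23, adjusted p = 0.0138). Apol7a had 2.89 ± 1.40 (adjusted p = 0.332), and without skin vehicle replicate 2 this was 0.12. Apol7c and Apol10a did not pass the filter of this fit because of their 0 counts in skin. With filterByExpr in its place they entered and were not called, at -0.93 (adjusted p = 0.835) for Apol7c and 2.06 (adjusted p = 0.731) for Apol10a. Without skin vehicle replicate 3, Apol7c was -0.30 (adjusted p = 0.901).

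As the family is known for its response to interferon, lists of interferon-induced genes were set beside it. In the small intestine, 2 of 35 type I interferon-induced genes were called, beside 2.95% of all genes tested, and both were higher: Isg15, a ubiquitin-like modifier (1018 ± 218.6 to 2155 ± 227.6 normalized counts, log2 fold change 1.08 ± 0.19, adjusted p = 0.0295), and Oas3, an enzyme of the RNA-sensing oligoadenylate pathway (2053 ± 52.97 to 3555 ± 96.75, 0.79 ± 0.11, adjusted p = 0.00968). At an unadjusted p under 0.05 there were 16, the median log2 fold change was 0.39 against -0.02 over all genes, and DESeq2 called 11, where it called 1206 of all 19965 genes. The edgeR count was 0 without IMQ-treated replicate 10, without replicate 11, in the fit of all libraries and with the proximal minus distal score as a covariate, 1 without control replicate 9 and 4 without control replicate 7. Among the most abundant, Parp14 (-0.19), Irf7 (0.54), Ifih1 (0.39) and Ifi35 (-0.0046) were not called. The values of Apol9a (0.53) and Apol9b (0.34) lay near this median, while those of Apol7c, Apol10a and Gm8221 lay far under it. No gene of 24 interferon gamma-induced genes was called in the small intestine by edgeR, with 5 at an unadjusted p under 0.05, 3 called by DESeq2 and a median of -0.29. The most abundant of them, Psmb8, Irf1, Psmb10, Irf8 and Tap2, had log2 fold changes from -0.44 to 0.09.

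In the skin, 0 of 35 type I interferon-induced genes were called by edgeR, 7 had an unadjusted p under 0.05, and DESeq2 called 3 (3030 of all 20512 genes) and limma-voom 1. Without skin vehicle replicate 2, edgeR called 9. Neither their direction nor the calls over all genes were counted in that fit, so a general rise in calls is not set apart. Among the most abundant, Parp14 (0.22), Stat2 (-0.24), Irf9 (-0.14) and Sp100 (0.47) were not called. Of 23 interferon gamma-induced genes tested in the skin, 0 were called by edgeR or DESeq2, 0 had an unadjusted p under 0.05, and the median log2 fold change was -0.10, with Tap1 (-0.35), Nlrc5 (-0.55), Psmb8 (0.07), Tap2 (-0.23) and Irf1 (-0.10) as the most abundant. Of 11 genes of the TLR7 pathway, 5 were called higher in the skin, where 6.74% of all genes tested were called. In the small intestine 4 were called higher, where 2.95% of all genes were, on 2 IMQ-treated libraries. Unc93b1, which carries TLR7 to endosomes, rose by 1.62 ± 0.16 (adjusted p = 0.00445) in the skin and 1.46 ± 0.13 (adjusted p = 0.00139) in the small intestine on the log2 scale, and Tlr7 itself by 1.23 ± 0.28 (adjusted p = 0.0482) and 1.20 ± 0.19 (adjusted p = 0.0185). The macrophage and monocyte markers, higher in the same IMQ-treated small intestines, summed to 848 to 1285 CPM in control skin and 1991 to 2581 in IMQ-treated skin, with 6 of 11 called higher, and their part in these rises was not tested. Of 17 interferon, interferon receptor and signalling kinase genes, 9 could be tested in each tissue. These were receptors and the kinases Jak1, Jak2 and Tyk2, and no interferon gene was among them. In the skin 2 rose, Il10rb (0.71 ± 0.10, adjusted p = 0.0132) and Ifnar2 (0.57 ± 0.12, adjusted p = 0.0412). In the small intestine 0 were called, and 1 had an unadjusted p under 0.05.

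The genes whose pattern was most like that of a member were taken from 15044 genes by Pearson's r over the 11 libraries, after the mean of each tissue had been taken away from log2(normalized count + 1). Apol7a was closest to Lgals4, an intestinal galectin (r = 0.972), Pigr, the receptor that carries IgA through the epithelium (0.964), and Sec62 (0.951). Apol10a was closest to Clca1 (0.964) and Muc2 (0.942), both known from goblet cells, with Lrrfip2 (0.944) between them. Apol9a went with Mogat2 (0.935), an enzyme of fat absorption, Apoc2 (0.931) and Gm13991 (0.919), and Apol9b with Ddc (0.930), Apoc2 (0.926) and Arsk (0.912). Apol7c went with Vps33b (0.930), Rab27a (0.929) and Mmut (0.913). The points share the libraries, and skin vehicle replicate 2 weighs on them. Without it r was 0.844 for Apol7a with Lgals4, 0.785 for Apol9a with Mogat2 and 0.914 for Apol7c with Vps33b. For Apol10a it was 0.888 with Clca1, 0.848 with Lrrfip2 and 0.812 with Muc2. Apol10a had 52 counts in that library and at most 3 in any other skin, so its skin points lie near the floor. Apol10a and Apol7c lack the count in every library that was asked of the genes compared with them. They are given as descriptions.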

How the data were processed

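Per the labels and the study's methods, stranded mRNA libraries were sequenced as 100-base paired reads, trimmed with Trimmomatic, aligned to mm10 with HISAT2 2.1.0 and quantified with StringTie 2.1.3b. The authors deposited 1 table with a read count, an FPKM and a TPM value per gene and library, and TPM was not used. The table does not state its strand setting or its treatment of reads with several matches. Counts were tested with edgeR 4.0.16 in R 4.3.3 (quasi-likelihood, RLE size factors, genes with at least 1 count in every library of the fit, Benjamini-Hochberg adjustment over all of them, called under 0.05). SE is the absolute log2 fold change over the square root of F, and 95% intervals are the estimate plus or minus the SE times the normal quantile. With so few libraries these intervals are approximate and narrower than the quasi-likelihood test itself implies. The fits were tried on simulated counts with known, large changes and the same spread for all genes. Such counts do not cover genes as uneven as Apol7a in control skin. Alternatives used TMM, DESeq2 1.42.0, limma 3.58.1 (voom, or log2 of FPKM plus 0.01 or 1), other filters, summed copies and left-out libraries. Sequences came from RefSeq and GENCODE vM21, read with Python and Biopython. All 10 members are named. From each interferon list the 5 most abundant genes and, for 5 members, the 3 genes with the highest r were named, out of those counted in every library at a mean of at least 50. Other named genes were picked after their values were seen. The members and lists were chosen with earlier results of these data known. An item of the interferon-induced list that the naming rule picked is not reported here by name.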

Additional observations from a re-analysis of the deposited data

How the results depend on the processing

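In the small intestine, Gm8221 stayed called under every alternative that kept it as a single gene (-5.01 to -2.82, adjusted p up to 0.0464), while Apol7c (-3.77 to -1.89, adjusted p up to 0.0753) and Apol10a (-2.08 to -1.26, adjusted p up to 0.388) kept their direction and lost the call in the fits named in the report. The members called numbered 1 in the fit of all libraries and 1 with copies summed (Apol7 copies -0.41, adjusted p = 0.626, and Apol10 copies -1.84, adjusted p = 0.0095). DESeq2 also called Apol10b (-0.83, adjusted p = 0.0401). The cause of these differences was not tested.

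Leaving out 1 library at a time, members called ranged from 1 to 3 in the small intestine, 0 to 1 in the skin and 0 to 1 for the interaction. Type I interferon-induced genes called ranged from 0 to 9 in the skin and 0 to 4 in the small intestine, and interferon gamma-induced genes from 0 to 1 in each. The calls over all genes were not counted in the fits with a library left out. Log2 fold changes that turned sign on leaving out a library ranged, in the skin, from -0.65 to 0.05 (Apol6), -1.21 to 0.24 (Gm8221), -1.56 to 0.56 (Apol9a) and -1.06 to 0.50 (Apol9b). In the small intestine they ranged from -0.58 to 0.55 (Apol6) and -0.35 to 0.14 (Apol7a), and for the interaction from -0.25 to 0.91 (Apol6), -0.04 to 2.13 (Apol9a), -0.18 to 1.42 (Apol9b) and -0.56 to 0.34 (Apol10b).

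Type I interferon-induced genes called in the skin were 3 with DESeq2, 1 with limma-voom, 1 with filterByExpr and 1 with log2(FPKM + 1). In the small intestine they were 11 with DESeq2, 1 with log2(FPKM + 1), 0 in the fit of all libraries and 0 with the proximal minus distal covariate, and DESeq2 called 3 interferon gamma-induced genes. Members called were 10 between vehicle-treated tissues with filterByExpr and with no filter, since the 4 untested genes then entered. Over all genes these fits called 11550 of 19888 and 11755 of 29619. For the interaction, 1 was called with DESeq2 and 1 with log2(FPKM + 1), in both Gm8221 (-3.15 and -2.65). These fits called 1281 and 425 of all 18108 genes. Signs also turned for Apol6 in the small intestine (0.01 with log2(FPKM + 0.01)), for Apol9a (-0.31) and Apol9b (-0.61) with the covariate, and for the interaction of Apol10b (-0.10 with limma-voom, -0.05 and -0.41 with log2(FPKM + 0.01) and log2(FPKM + 1), -0.33 with copies summed) and of Gm8221 (1.94 for the summed Apol7 copies, which Apol7a dominates).

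Replicate numbers are not shared between groups. No paired analysis was possible because no label ties a library of one group to one of another. Members with a 0 count in a skin library entered the skin comparison only with no filter on low counts, apart from Apol7c without skin vehicle replicate 3. With no filter, log2 fold changes were 1.45 (Apol7b, adjusted p = 0.696), 2.60 (Apol7e, adjusted p = 0.465), -2.07 (Apol7c, adjusted p = 0.444) and -4.04 (Apol10a, adjusted p = 0.355). These rest on a few counts per skin library, outside the 52 of Apol10a and up to 26 of Apol7c.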
